A study of Rattus norvegicus with 48 samples.

Results

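The genes described here are 39 genes of DNA replication and mitosis in rat lung, followed after inhalation of oil vapor or filtered air. They were taken from a written list of cell division genes and kept where the mean over the 48 libraries was at least 0.5 CPM (a gene's read count for every 1000000 reads counted in its library). All 39 listed genes of the 30045 in the count tables passed, the lowest being Ccnb2 at a mean of 1.90 CPM and the highest Mki67 at 66.0 CPM, so no gene lay just outside the limit. The rats were male Sprague-Dawley animals of about 200 to 250 g that breathed filtered air or oil vapor at 300 ppm for 6 hours a day in a whole-body chamber. In the single schedule the exposure lasted 1 day, and in the repeated schedule it was given on 4 days a week for 4 weeks, which makes 16 exposure days. A piece of lung was taken 1 or 28 days after the last exposure. This gave 8 groups of 6 animals, air and oil vapor at both times in both schedules, with 1 library for each animal. No age is given for any group, and the files hold no measure of lung or body growth, so the term growing lung is not tested here.

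A dividing cell first copies its DNA, when the Mcm2 to Mcm7 helicase opens the strands, Pcna clamps the polymerase to them and Rrm2 and Tyms supply nucleotides. It then activates Cdk1 with its A and B type cyclins, condenses its chromosomes, attaches them to spindle fibers through kinetochores, and separates its daughter cells after Cdc20 and Ube2c have directed the destruction of the cyclins. Many mitotic genes are switched on late in the cycle through a cell cycle homology region (CHR) and CCAAT boxes in the promoter, and many replication genes through E2F sites. The lung is a slowly dividing tissue in the adult and a more actively dividing organ while it grows.

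The promoters of the genes that carry the results are shown first, because the replication and mitotic members differed in the letters that their promoters held. RefSeq sequences of 300 bases, from 250 before to 50 after the annotated start (build GRCr8), were found for 32 of the 39 members, 33 promoters in all since Kif2c has 2. The promoters of Rrm2, Foxm1, Aurkb, Tpx2, Mcm4, Ccna2 and Ube2c were not analysed here. The letters searched on both strands were TTTGAA and TTCGAA for the CHR, CCAAT for the CCAAT box, and TTTCGCGC, TTTGGCGC and TTTCCCGC for E2F. Neighbouring matches can overlap and then run together in the capitals below, which mark every match on either strand. The first 3 sequences belong to mitotic members and the last 3 to replication members.
Cdk1: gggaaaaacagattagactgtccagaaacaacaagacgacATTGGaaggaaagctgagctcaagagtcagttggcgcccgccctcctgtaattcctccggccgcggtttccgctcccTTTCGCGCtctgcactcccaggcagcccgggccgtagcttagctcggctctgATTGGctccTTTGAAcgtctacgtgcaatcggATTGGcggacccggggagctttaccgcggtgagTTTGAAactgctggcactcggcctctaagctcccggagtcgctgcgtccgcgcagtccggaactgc
Top2a: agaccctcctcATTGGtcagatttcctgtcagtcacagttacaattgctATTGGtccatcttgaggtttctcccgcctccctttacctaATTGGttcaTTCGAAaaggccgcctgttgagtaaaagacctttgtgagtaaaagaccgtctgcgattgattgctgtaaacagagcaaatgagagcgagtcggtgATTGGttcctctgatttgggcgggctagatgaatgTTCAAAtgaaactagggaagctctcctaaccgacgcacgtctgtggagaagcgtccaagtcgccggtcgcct
Mki67: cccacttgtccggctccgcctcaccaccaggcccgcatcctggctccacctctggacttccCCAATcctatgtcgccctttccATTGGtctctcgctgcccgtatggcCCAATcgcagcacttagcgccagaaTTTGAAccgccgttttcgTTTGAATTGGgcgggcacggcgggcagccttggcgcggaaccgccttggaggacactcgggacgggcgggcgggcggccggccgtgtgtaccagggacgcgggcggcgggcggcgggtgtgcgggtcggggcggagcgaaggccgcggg
Mcm2: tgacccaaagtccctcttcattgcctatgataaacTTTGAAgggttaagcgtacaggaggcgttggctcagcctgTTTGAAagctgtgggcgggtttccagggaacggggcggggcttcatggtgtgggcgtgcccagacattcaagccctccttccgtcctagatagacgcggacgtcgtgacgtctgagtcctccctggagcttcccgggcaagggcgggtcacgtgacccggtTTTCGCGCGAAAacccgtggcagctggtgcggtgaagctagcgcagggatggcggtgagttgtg
Mcm5: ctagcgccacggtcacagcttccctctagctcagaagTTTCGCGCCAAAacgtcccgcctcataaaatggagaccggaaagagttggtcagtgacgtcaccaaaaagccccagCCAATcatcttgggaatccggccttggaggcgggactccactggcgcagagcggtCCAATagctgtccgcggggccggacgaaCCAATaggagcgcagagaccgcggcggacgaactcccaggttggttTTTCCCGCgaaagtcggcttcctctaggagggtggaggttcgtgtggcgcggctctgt
Mcm6: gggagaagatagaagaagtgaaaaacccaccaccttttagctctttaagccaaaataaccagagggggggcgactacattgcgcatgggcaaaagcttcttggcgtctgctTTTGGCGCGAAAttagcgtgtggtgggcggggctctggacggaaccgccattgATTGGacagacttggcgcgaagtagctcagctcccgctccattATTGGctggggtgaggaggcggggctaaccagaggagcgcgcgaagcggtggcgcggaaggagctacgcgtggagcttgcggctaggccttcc

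Cdk1 lies on chr20:19265043-19265342 (plus strand), Top2a on chr10:84473044-84473343 (minus), Mki67 on chr1:199952544-199952843 (minus), Mcm2 on chr4:122918045-122918344 (minus), Mcm5 on chr19:13488563-13488862 (plus) and Mcm6 on chr13:42404303-42404602 (minus). Each sequence is written in the direction of its gene. The CHR letters were in 57.6% of the 33 member promoters against 19.7% of all 33469 promoters of the same length. They were in 65.4% of the 26 promoters of members outside the replication list and in 28.6% of the 7 replication promoters. CHR and CCAAT letters stood together in 50% of those 26 and in 7.95% of all promoters. The E2F letters were in 85.7% of the 7 replication promoters, in 3.85% of the 26 others, which is Cdk1, and in 1.72% of all. CCAAT was in 66.7% of the member promoters and 37.5% of all. A match describes the letters in this window, not a bound site.

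**Figure D1:**
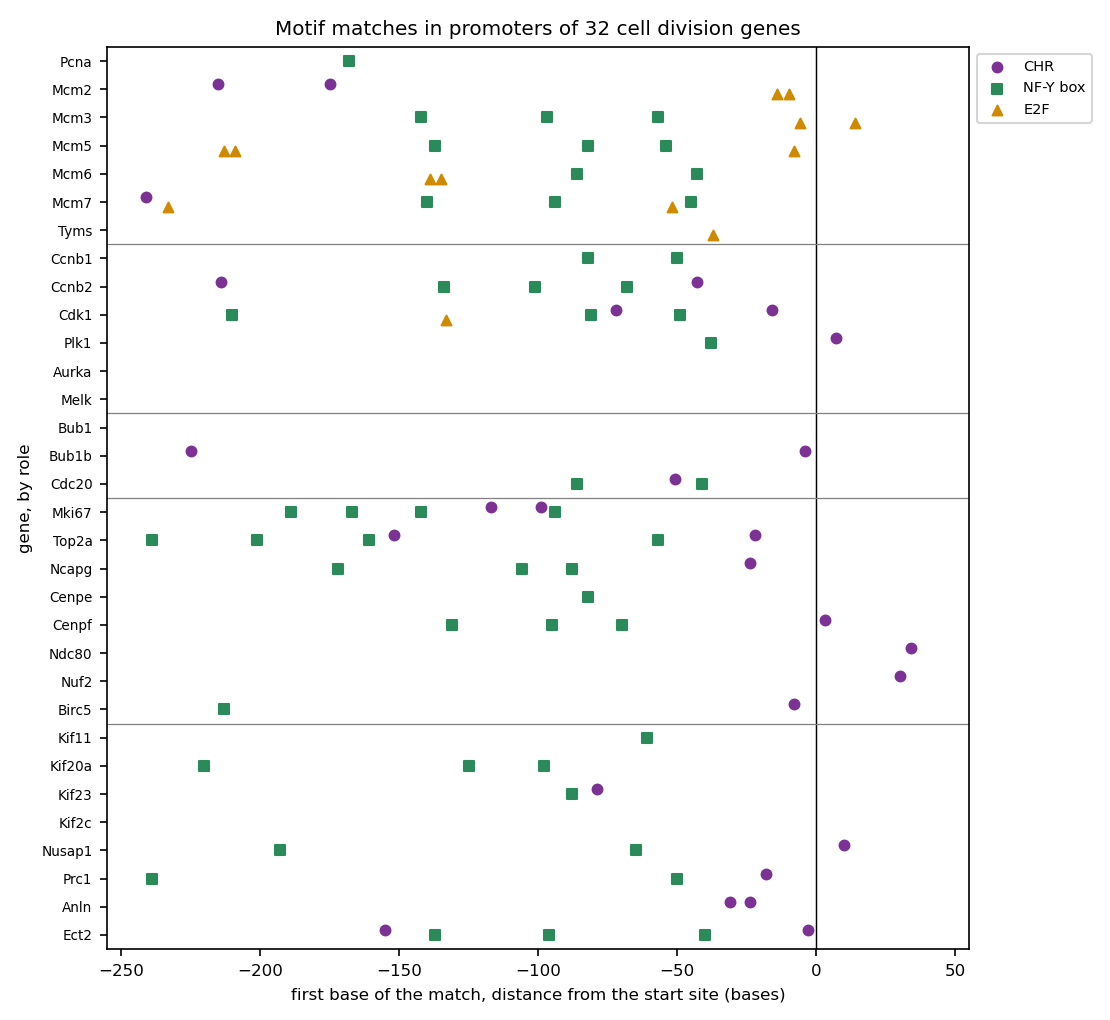
Positions of the CHR, CCAAT box (NF-Y box) and E2F letters in the promoters of 32 member genes, by distance in bases from the annotated start (x axis) with 1 gene a row. E2F matches sit in the replication genes and in Cdk1, CHR matches mostly in the mitotic genes, and Aurka, Melk, Bub1 and Kif2c show no match.

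Library totals ran from 1537183 to 7157844 counts, and 3 counts were worth between 0.419 and 1.95 CPM. Markers of alveolar type 2 cells, led by the surfactant genes, summed to between 6346 CPM, in animal 43, and 18900 CPM. Animal 43 (repeated oil vapor, 1 day) stood apart: it had the lowest total and a summed erythroid marker level of 42610 CPM against 1668 to 4834 CPM in the other 5 animals of its group. Its alveolar type 1, endothelial and fibroblast marker sums were 1711, 2775 and 1427 CPM. Those of the other 5 were 3187 to 4121, 4545 to 6050 and 3250 to 4219 CPM. Its T cell and B cell sums were above theirs, and its alveolar macrophage sum lay within their range. In the single schedule, animals 5 (oil vapor, 1 day, 13930 CPM) and 23 (air, 28 days, 8795 CPM) were also above their groups in erythroid markers. Across the 2 count tables, columns of like rank by animal number within their group also shared erythroid counts. For log2 counts less their group mean, Alas2 had an r of 0.997 over 24 such pairs. The median was 0.341 for the members and 0.311 for genes with a mean count of 10 or more. These counts were not scaled to the library total, so a depth shared by a pair enters that r. Animals 5 and 43 are such a pair, and so are animals 23 and 88 (repeated air, 28 days, 7200 CPM of erythroid markers). Among the members that r ran from -0.314 for Ccnb2 to 0.84 for Ube2c, with Ncapg at 0.68. The label of animal 32 (single oil vapor, 28 days) names the other schedule's table, although its column is in the table of the single schedule. Since each schedule has its own table, the table and the schedule cannot be told apart.

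**Figure D2:**
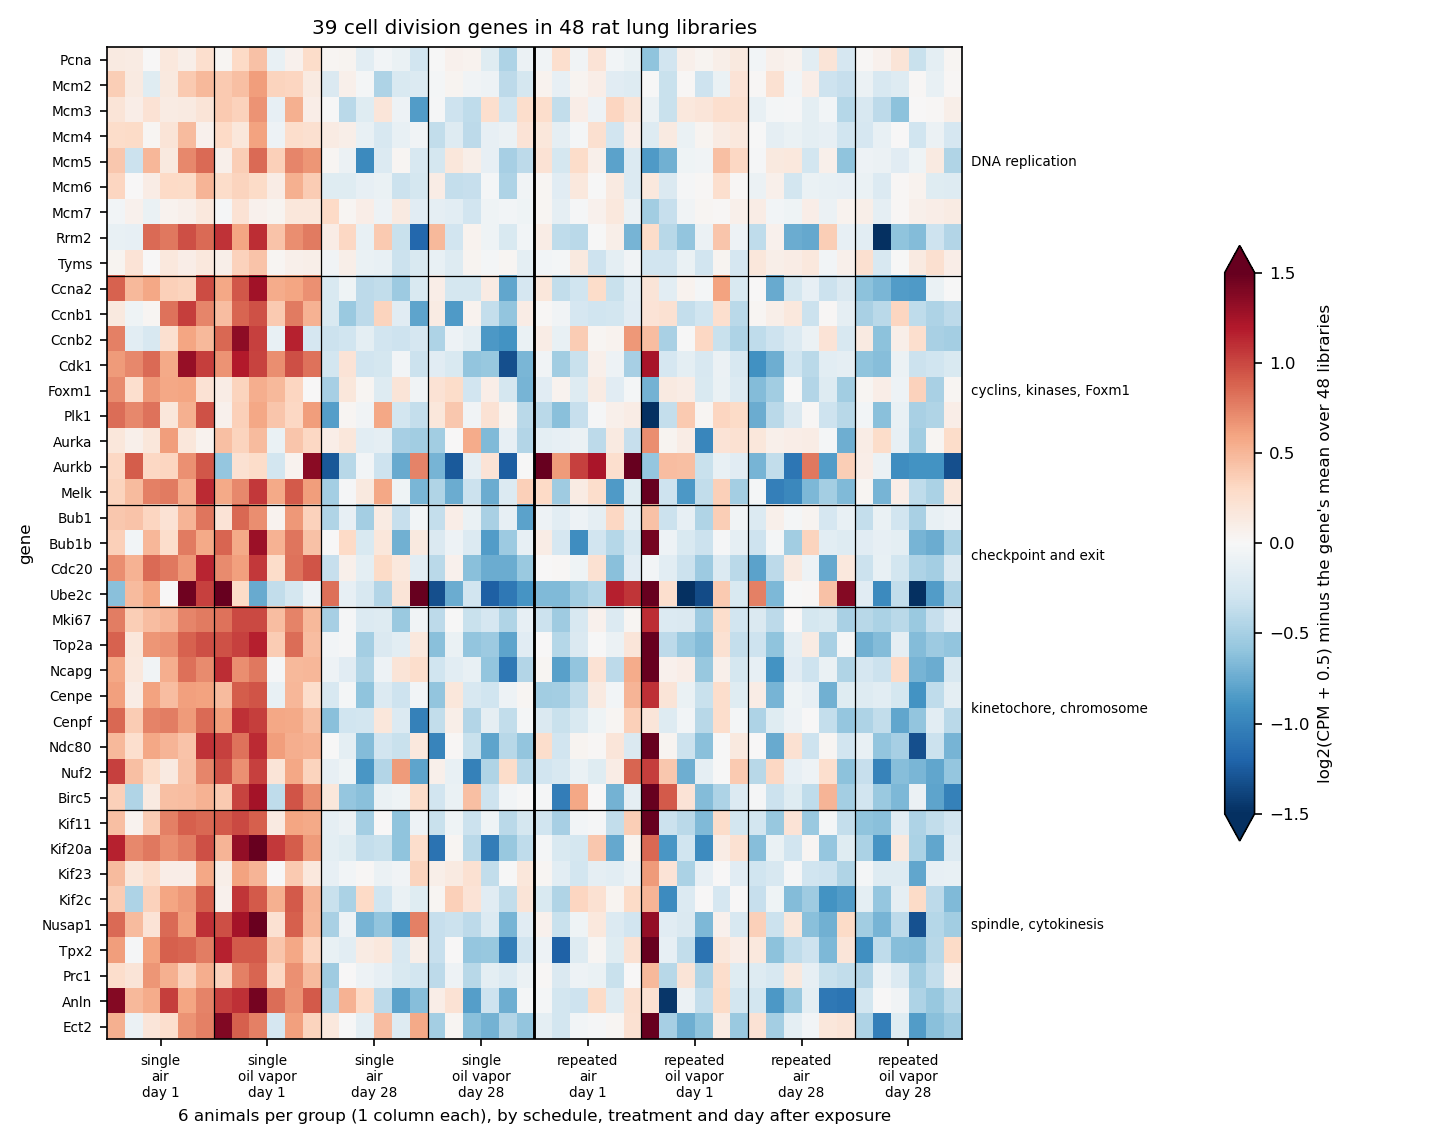
The 39 members (rows, by role) in the 48 libraries (columns, by group) as log2(CPM + 0.5) minus the gene's mean over all libraries. The 12 libraries of the single schedule at 1 day are the high block, and animal 43 stands out in the repeated oil vapor group at 1 day.

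Between 1 and 28 days after a single day in the air chamber, a large share of the cell division transcripts of the lung fell. Of the 39 members, 18 fell and none rose at an adjusted p below 0.05 (edgeR's quasi-likelihood test, Benjamini-Hochberg over 14820 genes), where 2.24% of all genes tested fell. The estimate was below 0 for 37 of the 39, with a median log2 fold change of -0.69 beside 0.003 for all genes. All 6 animals at 28 days lay below all 6 at 1 day for 14 members, which held for 1.9% of all genes tested. The summed level of the members was 612.6 to 803.5 CPM (median 711.4) at 1 day and 445.4 to 505.3 CPM (median 474.6) at 28 days, with no overlap. In bulk tissue, fewer dividing cells and less of these transcripts in each dividing cell cannot be told apart. Log2 fold changes below are given as the estimate with its approximate standard error, and group levels as the lowest, the median and the highest of 6 animals.

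The largest steps in the air animals were in mitotic genes. Mki67, the Ki-67 protein that coats mitotic chromosomes and marks cycling cells, was at 80.2, 95.8 and 106.9 CPM at 1 day and at 42.2, 54.1 and 61.5 CPM at 28 days. It fell by 0.83 ± 0.11 on the log2 scale, a 1.78-fold difference (adjusted p = 7.17e-05), and the highest late animal was below the lowest early one. Top2a, the topoisomerase that untangles sister DNA, went from 34.5, 53.2 and 60.5 to 21.4, 28.5 and 34.1 CPM and fell by 0.85 ± 0.15 (adjusted p = 0.00154). Its groups came close but did not overlap. Cenpf, a kinetochore protein, went from 32.1, 41.9 and 44.9 to 11.9, 20.1 and 27.6 CPM, a fall of 1.05 ± 0.15 (adjusted p = 0.000104). Cenpe, the kinetochore motor, and Ndc80, the kinetochore's microtubule hook, fell too, by 0.75 ± 0.16 and 0.80 ± 0.19. Of the 8 chromosome and kinetochore members, 5 fell, and Nuf2, Ncapg and Birc5 had estimates of -0.80, -0.57 and -0.48 that did not pass.

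Cdk1, the kinase that drives entry into mitosis, was at 9.18, 10.8 and 15.7 CPM at 1 day and at 4.72, 4.92 and 7.07 CPM at 28 days in air. It fell by 1.07 ± 0.17, a 2.1-fold difference (adjusted p = 0.000387), with the groups apart. Ccna2, the cyclin of S phase and early mitosis, went from 7.23, 8.37 and 11.6 to 3.71, 4.49 and 5.35 CPM and fell by 0.96 ± 0.17 (adjusted p = 0.00133). Plk1, a kinase of spindle assembly, fell by 0.87 ± 0.22 (adjusted p = 0.0248). Ccnb1, the main mitotic cyclin, stood at 2.62, 4.01 and 6.20 CPM early and at 1.39, 2.13 and 3.59 CPM late. Its groups overlapped and its difference of -0.88 ± 0.25 did not pass (adjusted p = 0.0553). Foxm1, the transcription factor of many mitotic genes, did not overlap between the groups, and its estimate of -0.57 had an adjusted p of 0.0513. Of the 9 cyclins, kinases and their regulators 3 fell, with a median of -0.85.

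Among the 4 checkpoint and mitotic exit members, Cdc20, which activates the ubiquitin ligase of anaphase, went from 6.99, 8.21 and 11 to 3.59, 4.58 and 5.84 CPM. It fell by 0.85 ± 0.17 (adjusted p = 0.00434), and no late animal reached an early one. Bub1, a spindle checkpoint kinase, went from 12.8, 14.7 and 19.3 to 7.49, 9.21 and 11.9 CPM and fell by 0.68 ± 0.16 (adjusted p = 0.0174). Ube2c, the ubiquitin-conjugating enzyme of the same ligase, had an estimate of 0.01 ± 0.60 (adjusted p = 0.998). Its 28-day group ran from 3.59 to 21.7 CPM, and the highest value was that of animal 23.

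Of the 9 spindle and cytokinesis members 6 fell in air. Kif20a, a kinesin of cytokinesis, went from 9.18, 9.79 and 12.8 to 3.45, 4.52 and 6.66 CPM, a fall of 1.12 ± 0.20 and a 2.17-fold difference (adjusted p = 0.00154). Prc1, which bundles the microtubules between the separating chromosomes, went from 24.7, 29.6 and 34.4 to 14.8, 19.03 and 21.8 CPM and fell by 0.63 ± 0.11 (adjusted p = 0.00125). Neither gene's groups overlapped. Kif11, the motor that pushes the spindle poles apart, fell by 0.82 ± 0.16, Anln, a scaffold of the cleavage furrow, by 1.02 ± 0.24, Nusap1 by 0.99 ± 0.25 and Tpx2 by 0.69 ± 0.18. With 1 animal left out, the calls of Nusap1, Tpx2 and of the kinase Plk1 were lost in 7, 6 and 6 of 12 fits. Ect2, which starts furrow formation, had an estimate of -0.24 ± 0.23 (adjusted p = 0.679).

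The replication members, which copy the DNA, had estimates nearer to 0. Mcm6 went from 18.1, 22.2 and 26.0 to 14.3, 15.8 and 16.8 CPM in air, without overlap, and fell by 0.45 ± 0.10, a 1.37-fold difference (adjusted p = 0.00953). Mcm2, another helicase subunit, went from 20.5, 28.2 and 33.2 to 16.8, 20.2 and 24.9 CPM, with overlap, and fell by 0.40 ± 0.11 (adjusted p = 0.0483). These were the 2 of 9 that passed, and the median over the 9 was -0.33. The call of Mcm2 lay at the threshold and was lost in 9 of 12 fits that left out 1 animal and under 6 of 8 other alternatives. Pcna, at 45.9, 49.99 and 54.6 CPM early and 37.5, 43.6 and 47.01 CPM late, had an estimate of -0.19 ± 0.09 (adjusted p = 0.271). Mcm7 had one of 0.05 ± 0.07. The medians of the other roles were -0.80 for chromosome and kinetochore, -0.72 for spindle and cytokinesis and -0.57 for checkpoint genes; whether the roles differ was not tested.

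**Figure D3:**
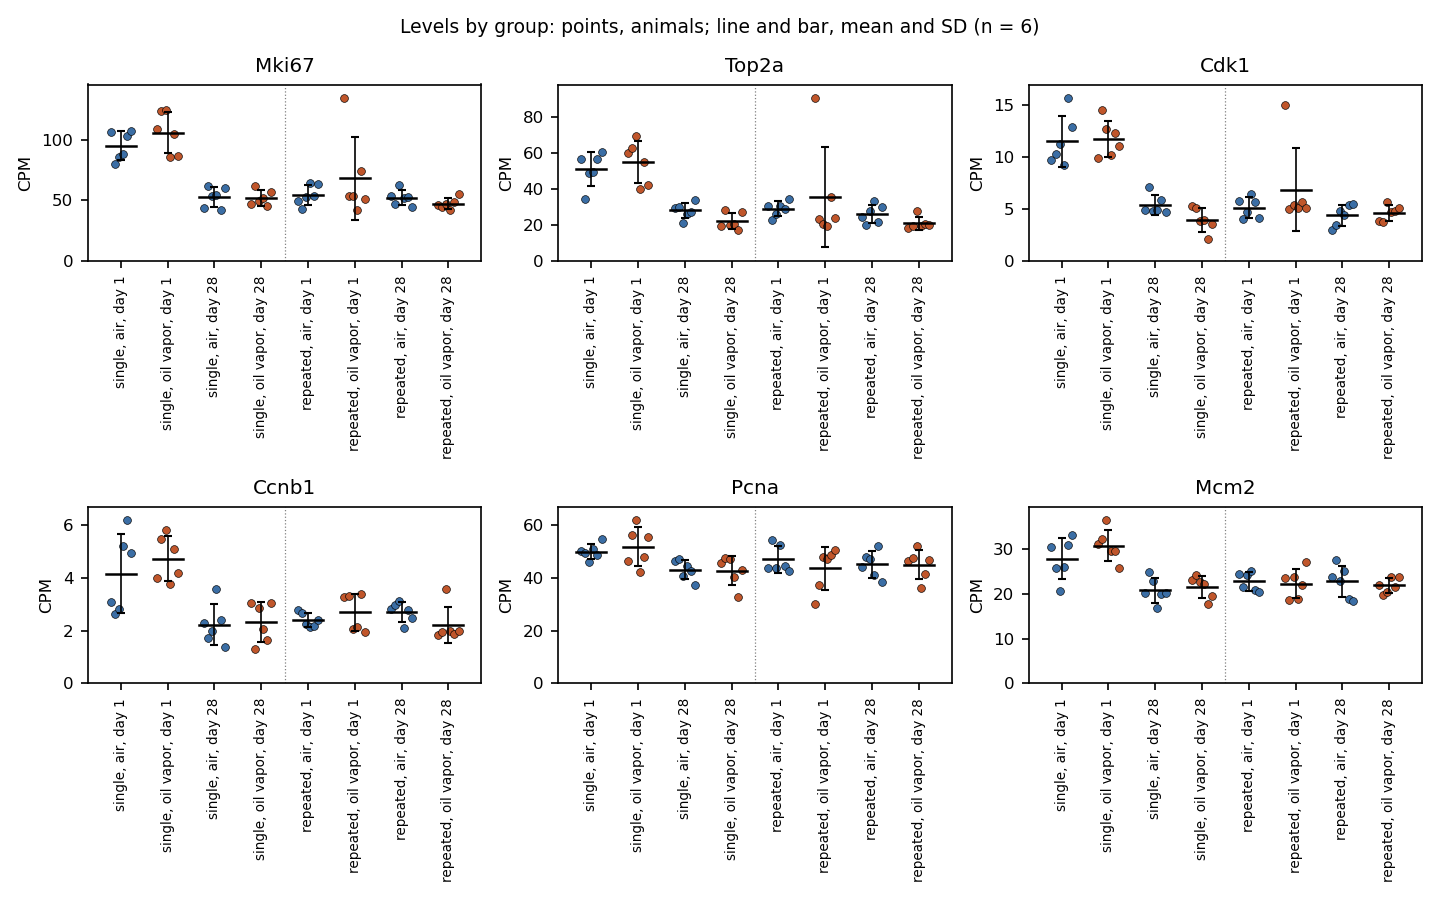
CPM of Mki67, Top2a, Cdk1, Ccnb1, Pcna and Mcm2 in the 8 groups, with 1 point for each animal and the mean ± SD (n = 6). For Mki67 and Cdk1 every animal of the single schedule at 1 day lies above every animal of the other 6 groups except animal 43, the high point of the repeated oil vapor group at 1 day, and for Top2a the lowest such animal (34.5 CPM) lies among them.

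The lungs of rats that had breathed oil vapor for a single day went the same way. From 1 to 28 days, 33 of the 39 members fell and none rose, where 4.98% of all genes tested fell. All 39 estimates were below 0, with a median of -0.96 beside -0.002 for all genes. The groups did not overlap for 19 members, against 2.12% of genes tested. Mki67 went from 85.97, 107 and 124.1 to 45.3, 50.5 and 61.8 CPM, falling by 1.03 ± 0.11, a 2.04-fold difference (adjusted p = 1.61e-06). Top2a went from 40.2, 57.6 and 69.6 to 17.5, 20.5 and 28.6 CPM and fell by 1.30 ± 0.15 (adjusted p = 4.99e-06). Both genes kept the early and late animals apart, and all 8 chromosome and kinetochore members fell. Cdk1 went from 9.91, 11.7 and 14.5 to 2.13, 3.87 and 5.33 CPM, a 2.92-fold difference and a fall of 1.55 ± 0.17 (adjusted p = 1.61e-06). Ccna2 fell by 1.05, Melk, a kinase of cycling cells, by 1.24, Ccnb2 by 1.42 and Ccnb1 by 1.02 (adjusted p = 0.00771). Ccnb1 stood at 3.78, 4.64 and 5.80 CPM early and at 1.32, 2.46 and 3.05 CPM late, without overlap. Aurka, Foxm1, Aurkb and Plk1 did not pass in oil vapor, so that 5 of the 9 cyclins and kinases fell.

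The 4 checkpoint and exit members fell in oil vapor. Cdc20 went from 5.77, 8.32 and 10.3 to 2.61, 2.95 and 4.93 CPM, without overlap, and fell by 1.35 ± 0.17 (adjusted p = 1.59e-05). Bub1b, the checkpoint protein BubR1, went from 6.57, 7.93 and 12.2 to 2.43, 4.01 and 4.44 CPM, also without overlap, and fell by 1.18 ± 0.19 (adjusted p = 0.000307). Ube2c fell by 2.12 ± 0.65 (adjusted p = 0.0389), but with the summed erythroid marker level in the model its estimate was 0.36 (adjusted p = 0.614). Of the 9 spindle and cytokinesis members 8 fell, Kif23 being the exception. Kif20a went from 8.01, 11.3 and 16.3 to 2.28, 3.79 and 5.59 CPM, a 3.15-fold difference and a fall of 1.66 ± 0.20 (adjusted p = 7.12e-06). Prc1 went from 26.9, 32.8 and 40.2 to 16.1, 19.1 and 20.5 CPM and fell by 0.83 ± 0.11 (adjusted p = 1.59e-05). Neither overlapped between the times.

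Of the 9 replication members 8 fell in oil vapor, Mcm3 being the exception, and Rrm2 and Mcm5 had the largest estimates. Mcm2 went from 25.7, 30.3 and 36.5 to 17.8, 22.4 and 24.2 CPM, without overlap, and fell by 0.52 ± 0.11 (adjusted p = 0.00305). Mcm6 fell by 0.52 ± 0.10 (adjusted p = 0.000975) from 19.5, 22.5 and 26.3 to 13.03, 15.8 and 19.6 CPM, with a narrow overlap. Pcna fell by 0.28 ± 0.08 (adjusted p = 0.0345) from 42.4, 51.7 and 62.1 to 32.9, 44.3 and 47.7 CPM, with overlap. Rrm2, the small subunit of ribonucleotide reductase, fell by 0.89, Mcm5 by 0.72 and Mcm7 by 0.25. The median of the role was -0.43. With 1 animal left out, the calls of Pcna and Ube2c were each lost in 6 of 12 fits and those of Tyms, Birc5 and Kif2c in 7 of 12.

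More members passed in oil vapor than in air, 33 against 18, but no member's change over time was shown to differ between oil vapor and air. The test of that difference called 0 members and 0% of the 14820 genes (edgeR), with 0 calls by DESeq2 and by limma-voom. At an unadjusted p below 0.05 edgeR had 7 members lower, beside 591 of the 14820 genes. The median of that difference over the members was -0.20, and the smallest adjusted p was 0.48, for Mcm7 at -0.30. Erythroid markers moved with the oil vapor change over time: 6 of the 10 tested fell, with a median of -2.06, against 1 of 10 with a median of 0.17 in air. In oil vapor their summed level was 2513 to 13930 CPM (median 3589) at 1 day, the highest being animal 5. At 28 days it was 1128 to 2602 CPM (median 1900). With that level in the model, 20 members fell in oil vapor and the members' median was -0.75. In air the count ranged from 13 to 22 over all alternatives, that model among them. Whether the erythroid level plays a part in the larger count in oil vapor was not tested. Without animals 5 and 23 together, 18 members fell in air and 32 in oil vapor.

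**Figure D4:**
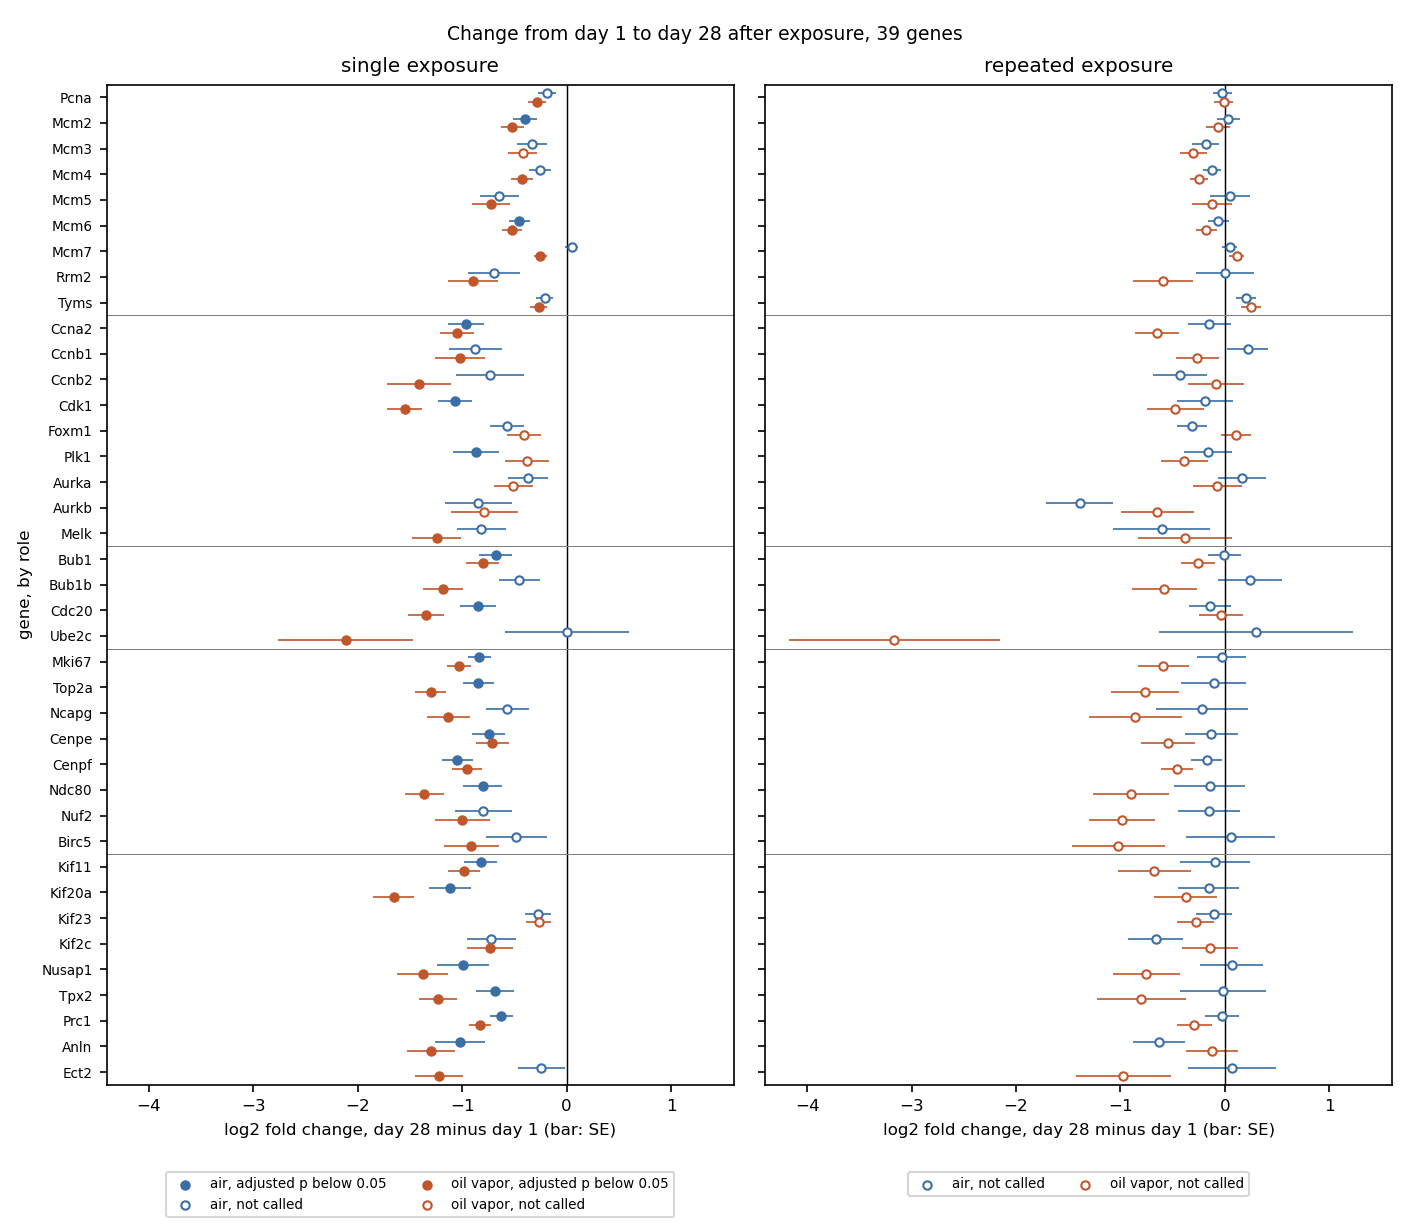
Log2 fold change of each member from 1 to 28 days with its standard error, in the single and the repeated schedule, for air (blue) and oil vapor (orange), filled where the adjusted p was below 0.05. In the single schedule 18 members in air and 33 in oil vapor are filled and lie below 0, and in the repeated schedule none is filled.

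After the repeated schedule no member passed between 1 and 28 days. In air edgeR called 0 of 39, where 0.327% of the 15005 genes tested were called, and at an unadjusted p below 0.05 there were 1 higher and 4 lower. DESeq2 and limma-voom each called 1 lower. The median was -0.10, with 27 of 39 estimates below 0. Mki67 was at 42.9, 53.2 and 64.7 CPM at 1 day and 44.3, 52.3 and 62.5 CPM at 28 days, an estimate of -0.03 ± 0.24 (adjusted p = 0.987). Cdk1 was at 4.06, 5.19 and 6.42 CPM and then 3.00, 4.62 and 5.47 CPM, and Top2a at 22.6, 29.8 and 34.8 CPM and then 20.1, 26.2 and 33.3 CPM. The early and late animals of these genes shared 1 range. The standard errors rest on a spread shared by all 24 libraries of the schedule, animal 43 of the oil vapor animals included. With only the libraries of these air groups in the fit, edgeR again called 0 members. The member with the smallest adjusted p was Aurkb, the kinase of the chromosomal passenger complex, at 15.5, 28.8 and 50.1 CPM early and 5.85, 8.81 and 22.6 CPM late, with an estimate of -1.39 ± 0.32 (adjusted p = 0.0608).

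In oil vapor after the repeated schedule edgeR again called 0 of 39 members, where 0.34% of genes tested were called, and DESeq2 and limma-voom called 0. At an unadjusted p below 0.05 there were 14 lower and 1 higher, without the count of all genes at that cutoff beside them. The median was -0.38, and -0.17 without animal 43. Mki67 stood at 42.3, 53.6 and 134.7 CPM at 1 day, the last being animal 43, and at 42.0, 46.8 and 55.2 CPM at 28 days, with an estimate of -0.59 ± 0.24 (adjusted p = 0.247). Top2a stood at 19.3, 23.6 and 91.1 CPM, and then at 18.3, 19.7 and 27.8 CPM. For both genes the other 5 early animals overlapped the late ones. The smallest adjusted p among the members was 0.137, for Ube2c at -3.16 ± 1.01, whose 1-day group ran from 0.877 to 139.2 CPM. The next were Ccna2 at -0.65 ± 0.21 and Cenpf at -0.46 ± 0.15. The change over time was not shown to differ between oil vapor and air for any member by edgeR, with 0 calls, 1 higher and 1 lower at an unadjusted p below 0.05, 0 calls by DESeq2 and limma-voom, and 0.00666% of genes tested called.

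The difference between the schedules was itself tested over all 48 libraries as the change from 1 to 28 days, averaged over air and oil vapor, in the repeated minus the single schedule. It was above 0 for 37 of the 39 members, with a median of 0.50 beside -0.01 for all genes. It passed for 13 members, all higher, where 2.51% of the 15322 genes tested were called higher. Cdc20 differed by 1.01 ± 0.19 (adjusted p = 0.00103), Cdk1 by 0.99 ± 0.22 (adjusted p = 0.00611) and Kif20a by 1.13 ± 0.25 (adjusted p = 0.0062). Among the cyclins, Ccnb1 differed by 0.92 ± 0.23 and Ccna2 by 0.61 ± 0.19. The replication genes Tyms, which makes thymidylate, Mcm2, Mcm5 and Mcm6 differed by 0.46 ± 0.09, 0.44 ± 0.11, 0.64 ± 0.19 and 0.36 ± 0.10. Bub1, Mki67, Cenpf and Prc1 differed by 0.61, 0.63, 0.69 and 0.57. By role, 4 of 9 replication, 3 of 9 cyclin and kinase, 2 of 4 checkpoint, 2 of 8 chromosome and 2 of 9 spindle members passed. Without animal 43, 21 members passed.

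The schedules stood apart at 1 day. In air, 14 members were lower after the repeated than after the single schedule, where 2.61% of genes tested were called lower, and 38 of 39 estimates were below 0, with a median of -0.61. Mki67 was lower by 0.82 on the log2 scale in these animals (estimate -0.82 ± 0.19, adjusted p = 0.00647), with the repeated group at 42.9 to 64.7 CPM and the single group at 80.2 to 106.9 CPM. Cdk1 had an estimate of -1.17 ± 0.21 (adjusted p = 0.000441), Cenpf of -0.81 ± 0.15 and Plk1 of -0.99. Aurkb was the exception to the direction, at 15.5 to 50.1 CPM after the repeated and 16.1 to 25.0 CPM after the single schedule. In oil vapor, 14 members were also lower, where 2.12% of genes tested were, with a median of -0.52. Cdc20 had an estimate of -1.13 (adjusted p = 0.00012), Anln of -1.26 and Kif20a of -1.17. Without animal 43, 23 members were lower in air, a comparison that this animal enters only through the estimates all groups share, and 27 in oil vapor, with a median of -0.84.

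Animals of the repeated schedule at 1 day and of the single schedule at 28 days both came about 4 weeks after their first exposure, if the exposure weeks were consecutive. The groups so compared differ in exposure days and in time since the last exposure. In air, 1 member was called, Aurkb, higher by 1.47 ± 0.34 in the repeated animals (adjusted p = 0.0202), where 0.744% of all genes tested were called, and the members' median was 0.04. In oil vapor edgeR called 0 members, where 0.718% of genes tested were called, with 10 higher at an unadjusted p below 0.05. DESeq2 called 2 and limma-voom 0. The median was 0.30, and 0.12 without animal 43. Mki67 was at 42.3 to 134.7 CPM in the first of these oil vapor groups and at 45.3 to 61.8 CPM in the second. These comparisons, like those before, share groups with each other.

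For oil vapor against air at the same time, edgeR called no member in any of the 4 comparisons. At 1 day after a single exposure, edgeR called 0 of 39 members and 0% of all genes. At an unadjusted p below 0.05 it had 0 members, beside 1494 of the 14820 genes tested. DESeq2 and limma-voom called 0. The estimates were above 0 for 35 of 39, with a median of 0.11. Mki67 was at 85.97 to 124.1 CPM in oil vapor and 80.2 to 106.9 CPM in air (0.16 ± 0.11, adjusted p = 0.677), and the groups overlapped. Bub1b had the smallest adjusted p, 0.497, at 0.38 ± 0.18. At 28 days after the single exposure edgeR called 0 members and 0% of genes, and the other tools called 0. At an unadjusted p below 0.05 edgeR had 7 members lower, beside 654 of the 14820 genes tested. The median was -0.05. Mcm7, at 34.3, 39.2 and 41.0 CPM in oil vapor and 37.5, 43.9 and 52.0 CPM in air, had an estimate of -0.22 ± 0.07 (adjusted p = 0.384). Cdc20 had one of -0.52 ± 0.19 and Cdk1 one of -0.44 ± 0.18, also without passing.

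At 1 day after the repeated exposure edgeR called 0 members, where 0.00666% of genes were called, while DESeq2 and limma-voom each called 1 lower. At an unadjusted p below 0.05 edgeR had 1 member higher and 1 lower, beside 870 and 524 of the 15005 genes tested. The median was 0.18, and -0.01 without animal 43. Aurkb, at 8.46, 11.7 and 18.0 CPM in oil vapor and 15.5, 28.8 and 50.1 CPM in air, had an estimate of -1.20 ± 0.32 (adjusted p = 0.215). Those groups overlapped at their edges. At 28 days after the repeated exposure edgeR called 0 members and 0% of genes, with 1 higher and 1 lower at an unadjusted p below 0.05, and the other tools called 0. Foxm1, at 5.40, 7.95 and 9.998 CPM in oil vapor and 4.76, 5.44 and 7.73 CPM in air, had an estimate of 0.41 ± 0.14 (adjusted p = 0.792).

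Other genes of the cycle, from lists kept apart from the members, moved in part with them over time in the single schedule, where 2.24% of all genes tested fell in air and 4.98% in oil vapor. Of 47 other mitosis genes tested, 13 fell in air and 31 in oil vapor, with medians of -0.62 and -0.88. In air these were led by Iqgap3 at -0.98 (adjusted p = 0.000405), Ncapd2, a condensin subunit, at -0.68 and Stil at -1.01. In oil vapor Cdca3 led at -2.04 (adjusted p = 8.8e-06). Of 35 other replication genes, 4 fell in air and 10 in oil vapor, with Pola2, a subunit of the polymerase alpha primase, at -0.51 (adjusted p = 0.000425) in air and Brca1 at -0.55 and -0.67. Of 15 genes of the G1 to S step, 2 fell in air, E2f7 at -0.94 and Ccnd2 at -0.36, and 4 in oil vapor, led by Ccne2 at -1.13 (adjusted p = 0.000938). Of 8 cycle inhibitors, 1 rose in both, where 149 of the 14820 genes tested rose in air and 660 in oil vapor. It was Cdkn1b, which encodes p27 and holds cells in G1, and it rose by 0.28 (adjusted p = 0.00822) in air and 0.19 (adjusted p = 0.0438) in oil vapor. Over the schedules, 9 of 48 other mitosis genes, 1 of 37 replication genes, 1 of 15 G1 to S genes and 0 of 8 inhibitors were called higher in the difference of their changes over time, where 2.51% of genes tested were. The single calls among replication and G1 to S genes are near that share.

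Markers of some other cell types were called between 1 and 28 days in the single schedule, as the members were. In the single schedule the summed level of the 7 fibroblast markers was 4661 to 6443 CPM at 1 day and 2339 to 3466 CPM at 28 days in air, and 4660 to 6515 and 2939 to 3642 CPM in oil vapor. Col3a1, at a mean of 2865 CPM over the 48 libraries, makes up most of that sum, so it does not describe the markers as a set. In air 3 of the 6 tested fell and 1 rose, and in oil vapor 3 fell and 2 rose. After the repeated schedule the sum was 2830 to 3815 CPM in air and 1427 (animal 43) to 4219 CPM in oil vapor at 1 day, and 2279 to 2935 CPM at 28 days. Of 7 endothelial markers 2 rose in air and 2 in oil vapor in the single schedule. Of 6 alveolar type 1 markers 0 were called in air (2 at an unadjusted p below 0.05) and 3 rose in oil vapor, Rtkn2, Hopx and Clic5, each named after its values were seen. Of 6 markers of multiciliated cells tested, Ccno fell in both, by 1.63 in air and 1.15 in oil vapor, and no other was called. No marker of T cells, B cells, alveolar macrophages or alveolar type 2 cells was called by edgeR in either. Markers of granulocyte precursors, another dividing population, were low, with a sum of 0.221 to 7.81 CPM. Their means ran from 0.00388 CPM for Ctsg to 1.68 CPM for Ngp, with Elane at 0.0194 and Camp at 0.992 CPM. The part of these markers in the members' change was not tested.

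Erythroid markers moved with a few members and most of all with Ube2c. Within the groups of the single schedule, the log2 level of Ube2c went up by 1.45 ± 0.12 for each log2 unit of the summed erythroid level (adjusted p = 1.42e-09), and Ncapg at 0.35 and Ect2 at 0.40 were called too, where 3.35% of genes tested were called higher. In the repeated schedule the slope of Ube2c was 1.51 and 17 members were called higher, where 14.3% of genes tested were. Without animal 43, Ube2c was the only member called, at 1.57 ± 0.17 (adjusted p = 8.6e-07), where 1.37% of genes were. Columns of like rank in the 2 schedules share erythroid counts, and Ube2c too (r = 0.84), so their slopes may not be independent. The median slope over the members was 0.04 in the single schedule, 0.22 in the repeated one and 0.11 without animal 43. In that animal Ube2c stood at 139.2 CPM against 0.877 to 6.76 CPM in the other 5, and Ect2 at 43.6 against 5.11 to 9.66 CPM. Its replication members summed to 168.5 CPM, beside 342.8 CPM for its chromosome and kinetochore members.

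**Figure D5:**
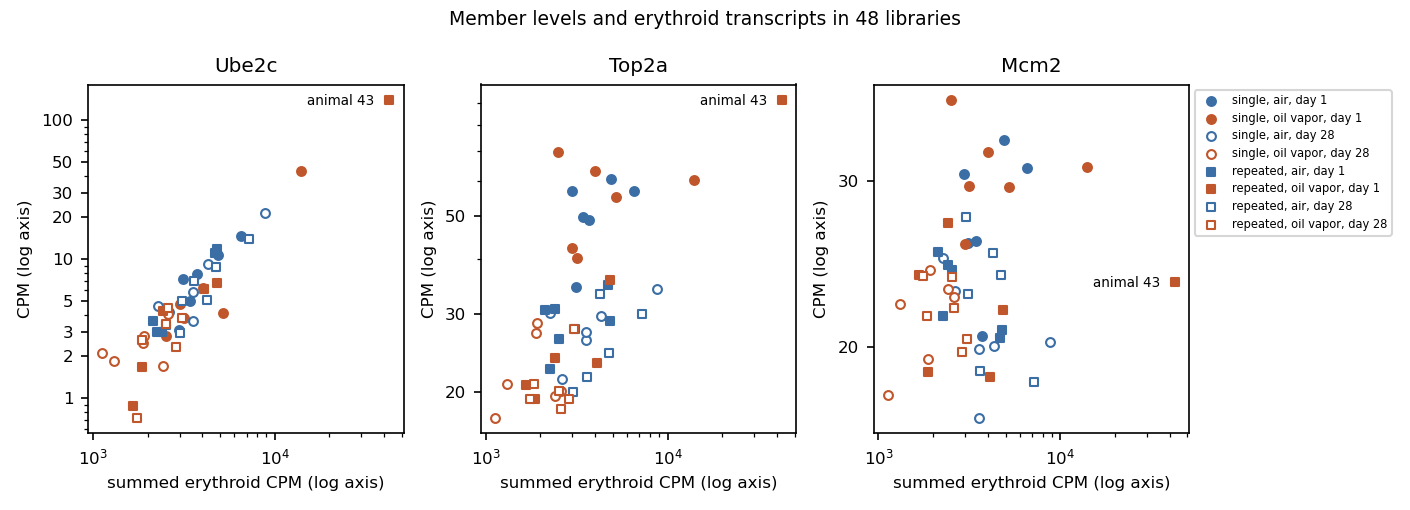
CPM of Ube2c, Top2a and Mcm2 (y axis, log scale) against the summed CPM of the erythroid markers (x axis, log scale) in the 48 libraries, with animal 43 marked. Ube2c rises along the whole range, Top2a is high with the erythroid sum mainly in animal 43, and Mcm2 is level.

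Among themselves, the members differed widely in their spread within a group, which includes the sampling of reads. Over the 47 libraries without animal 43, the within-group SD of the log2 level had a median of 0.306 over the members. It was smallest for Mcm7 at 0.115 and largest for Ube2c at 0.879, followed by Aurkb at 0.595, and the replication members had a median of 0.166. Read sampling alone gives an SD of about 0.495 for Ccnb2, the member with the fewest reads, whose measured SD was 0.381. It gives 0.0834 for Mki67 (measured 0.205), 0.304 for Ube2c and 0.172 for Aurkb. For Plk1, Tyms, Cdk1, Kif2c and Birc5, among others, the measured SD was also below that sampling value. The measured SD was taken on log2(CPM + 0.5), which shrinks it for members with few reads, while the sampling value has no such CPM offset. For members with few reads these values therefore cannot be ranked. Within groups, the members that moved most closely with Mki67 over the 47 libraries were Kif11 (r = 0.759), Cenpe (r = 0.684) and Top2a (r = 0.677). The median r between members was 0.344 within the chromosome and kinetochore role, 0.304 within the spindle role, 0.23 among the replication genes and 0.0386 among the cyclins and kinases. Read sampling lowers such an r for members with few reads, so the roles cannot be ranked by it. In RefSeq's table for build GRCr8, 16 of the 39 members overlap another annotated gene, among them Kif20a with Cdc23, Plk1 with Ern2 and Mcm7 with Mir106b, so reads of such neighbours may be included where the counting ignored strand, a setting that no label states.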

How the data were processed

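Lung RNA of 48 rats was sequenced from rRNA-depleted, stranded libraries, per the labels' protocols. The authors deposited 2 tables of raw read counts per gene, 1 for each schedule with 24 columns each, and 0 columns of other samples were found. The submitters' processing notes name HTSeq 0.6.1, HISAT2 2.1.0 with build Rnor_6.0, Trimmomatic 0.35, SAMtools 1.8 and bcl2fastq 2.19. The annotation and the strand setting are not given in the sources used here.

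Counts as deposited were tested with edgeR 4.0.16 in R 4.3.3 (filterByExpr, TMM, group means, quasi-likelihood test, two-sided), with Benjamini-Hochberg adjustment over all genes tested and a threshold of 0.05. Each schedule was fitted on its 24 libraries, and contrasts between schedules on all 48. The standard error is the log2 fold change divided by the square root of F, and is approximate. DESeq2 1.42.0, limma 3.58.1 (voom), other filters and scalings, an erythroid covariate and leaving out each animal were alternatives. Counts of members at an unadjusted p below 0.05 are descriptions. The shares of all genes called are at the adjusted threshold, and a gene count at the unadjusted p is given only where stated. CPM used library totals, and depth limits low genes. The counts, made with no molecular identifiers, carry sampling error beside the differences between animals.

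Tested on simulated data for the air change over time in the single schedule (14820 genes), the edgeR script recovered 66 of 100 genes changed by 1.5-fold and 83 of 100 changed by 2-fold. In the repeated schedule (15005 genes) it recovered 63 and 84 of 100. Of the 157 and 153 genes called in these simulations, 8 and 6 were unchanged. The changed genes were drawn at random from all genes tested, with counts simulated from the mean levels and fitted spread of the real data. These shares are therefore for genes of any level under the test's own model, not for the members.

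The members and lists were chosen with earlier results of these data known. Members to be given with values by group were the 2 with the smallest p in each role and contrast, and Mki67, Top2a, Cdk1, Ccnb1, Pcna and Mcm2. From each other cell cycle list they were the 3 genes of smallest p. Not all of these are given in every contrast, so the genes named in a contrast are not a complete selection. Further members were named after their values were seen. The schedule contrasts in oil vapor, those of repeated at 1 day against single at 28 days, the erythroid slope, and leaving out animals 5 and 23 were added after seeing the data. Each library is 1 animal; the rats were housed in pairs, and the cage is not known for any of them.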

Additional observations from a re-analysis of the deposited data

Results flagged for a closer look

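In 36 of 312 tests of a member within a group of 6, 1 animal lay apart from the other 5 by Dixon's criterion for 6 values. Chance gives about 1 in 20 where values are normal, and tests that share animals are not independent. Animal 43 (repeated oil vapor, 1 day) accounted for 13, all high: Mki67 at 134.7 CPM, Top2a at 91.1, Cdk1 at 15.0, Melk at 11.1, Bub1b at 13.7, Ube2c at 139.2, Ncapg at 26.0, Cenpe at 26.7, Ndc80 at 22.1, Kif11 at 37.7, Nusap1 at 15.0, Tpx2 at 36.4 and Ect2 at 43.6 CPM. Its members summed to 964.1 CPM against 424.8 to 577.7 CPM in the other 5, beside an erythroid sum of 42610 CPM. The replication members are not among these 13.

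The other 23 were spread over the groups. In the single schedule at 1 day, in air, animal 4 was high for Aurka (9.90 CPM), animal 2 low for Cenpe (13.3) and animal 10 high for Ndc80 (13.7). In oil vapor at that time animal 13 was low for Aurka (5.77), animal 16 high for Aurkb (33.8) and animal 5 high for Ube2c (43.4), with an erythroid sum of 13930 CPM that also stood apart. At 28 days in air, animal 19 was low for Mcm5 (4.19) and high for Ccnb2 (1.54), where that group held only 5 to 8 Ccnb2 reads a library. Animal 23 was high for Ube2c (21.7), Kif23 (27.2) and Nusap1 (9.99), with an erythroid sum of 8795 CPM. At 28 days in oil vapor animal 27 was high for Cdc20 (4.93) and Ect2 (9.04), and animal 28 for Birc5 (2.87).

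In the repeated schedule at 1 day in air, animal 39 was high for Bub1 (13.6 CPM) and animal 40 for Nuf2 (6.31). At 28 days in air animal 88 was low for Mcm3 (14.3) and Aurka (3.53). At 28 days in oil vapor animal 92 was high for Ccnb1 (3.58) and Top2a (27.8), animal 96 high for Tpx2 (10.9), and animal 93 low for Cenpe (6.36) and Kif23 (12.4).

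The change from 1 to 28 days differed between the schedules, by the test of that difference, for 13 members. The repeated minus single difference (log2) was 1.13 for Kif20a, 1.01 for Cdc20, 0.99 for Cdk1, 0.92 for Ccnb1, 0.69 for Cenpf, 0.64 for Mcm5, 0.63 for Mki67, 0.61 for Bub1, 0.61 for Ccna2, 0.57 for Prc1, 0.46 for Tyms, 0.44 for Mcm2 and 0.36 for Mcm6. Among the other cell cycle genes it was 0.81 for Ncaph, 0.80 for Iqgap3, 0.77 for E2f7, 0.60 for Pola2 and 0.58 for Ncapd2.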

How the results depend on the processing

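Of 741 alternative values for counts of called members and their medians, 714 lay within the spread between animals or within 1.5 times the count and 27 moved. Many of the 714 are counts that were 0 at first and stayed 0, so that total says little of the counts above 0. In 4 of the 741 a median of uncalled differences changed sign, all in the repeated schedule: 3 are given below, and oil vapor against air at 28 days went from -0.09 to 0.028 with the erythroid covariate. With the erythroid level as a covariate, members called lower from 1 to 28 days were 20 in single-schedule oil vapor (median -0.75) and 1 in repeated air. With that covariate the medians were -0.16 for repeated oil vapor over time, 0.039 for its difference from air and 0.085 for repeated at 1 day against single at 28 days in oil vapor. With limma-voom and sample weights, 1 member was lower at 1 day in oil vapor against air after the repeated schedule (median -0.024) and 1 in repeated air over time, and the repeated oil vapor median over time was -0.17. By that tool 23 members were lower in air and 27 in oil vapor (median -0.78) after the repeated against the single schedule at 1 day. DESeq2 called 1 member lower at 1 day in oil vapor against air after the repeated schedule, 1 lower in repeated air over time, and 2 higher at repeated 1 day against single 28 days in oil vapor. With all 48 libraries in the fit, 1 member was lower over time in repeated air and 2 in repeated oil vapor. The cause of these shifts was not tested.

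Leaving out each animal in turn gave 13 to 22 members lower over time in single-schedule air, 29 to 34 in oil vapor, and 0 to 1 in repeated air, where 1 came without animal 39 or animal 86. The median ranged from -0.54 to -0.17 for repeated oil vapor over time and from -0.0145 to 0.25 for oil vapor against air at 1 day after the repeated schedule. Without animal 43, the values for repeated against single at 1 day were 23 lower in air and 27 in oil vapor (median -0.84), repeated at 1 day against single at 28 days in oil vapor had a median of 0.12, and 21 members differed over time between schedules. Of 1271 alternative values for single called members, 1153 stayed past the threshold, 117 did not, and 1 reversed: Ube2c in single-schedule oil vapor over time, at 0.36 (adjusted p = 0.614) with the erythroid covariate. No paired analysis was possible because the labels share no animal number between groups. The like-rank columns of the 2 tables are tied by no label, and no block on them was fitted for the contrasts between schedules.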
